A study of Mus musculus with 13 samples.

Results

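Imprinted genes are expressed mainly from the copy inherited from 1 parent, at least in some tissues. Followed here in the ventral tegmental area (VTA) of the mouse were 10 that are known for their expression in the brain: Peg3, Meg3, Rian, Mirg, Dlk1, Ndn, Magel2, Nnat, Gnas and Igf2. They were chosen by name, with earlier results of these data known, as were the lists of cell type markers used below. Counts among the 10 set beside shares of all genes, and p-values of correlations with markers, make no allowance for that choice. All 10 are among the 26264 genes of the expression table and passed the filter on low values that left 17755 genes for testing. The VTA is the midbrain region that holds dopamine neurons, and it was sampled as tissue punches from adult mice of strain C57BlJ/6. A virus carrying Setd7, a lysine methyltransferase, or green fluorescent protein (GFP) had been given at postnatal day 14, and some animals then met social defeat as adults. GFP control (n = 3, 1 female) and GFP defeat (n = 4, 2 female) received the GFP virus, without and with defeat. The Setd7 virus went to Setd7 control (n = 4, 2 of them female) without defeat, and to Setd7 defeat (n = 2, 1 of them female) with it. All 4 groups therefore share a viral injection into the young VTA, and the labels name neither the promoter of the virus nor the cells that took it up. The labels do not say that each library is a separate animal, so p-values measure the spread between these samples. For Setd7 defeat replicate 1 the data column and the title carry different numbers, the first of them longer, so it is not settled that this library came from 1 animal.

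Imprinting is set in the germ line by DNA methylation at control regions, and neighbouring imprinted genes often share such a region while being read from opposite parental copies. In the Dlk1-Dio3 domain on chromosome 12 the paternal copy gives the protein gene Dlk1, and the maternal copy gives the long noncoding RNAs Meg3, Rian and Mirg, which lie one after another on the same strand and carry small nucleolar RNAs and microRNAs. Ndn and Magel2 are paternally read genes of the region whose human counterpart is lost in Prader-Willi syndrome. The libraries hold no information on parental copies, so every value is the sum of both.

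The libraries held 26.5 to 50.8 Mreads (mega-reads) assigned to genes. A normalized count is a read count divided by a size factor of its library, and the normalized totals ran from 34.6 to 37.0 mega-counts. Setd7 itself read 10888 to 14538 in the 7 GFP libraries and 28587 to 158681 in the 6 Setd7 libraries. Th, the enzyme that makes the dopamine precursor, was low in 3 libraries, at 2508 to 3392 in replicates 2 and 3 of GFP control and replicate 1 of GFP defeat, against 9759.5 to 19110.5 in the other 10 libraries. Tcf7l2, which marks thalamic neurons, was at 9009 and 9559 in the same 2 GFP control libraries and 6575 in GFP defeat replicate 4, against 949 to 1869 elsewhere. Where the 3 libraries with low Th are left out, GFP control has n = 1 (replicate 1), and limma assigns it the spread of the remaining groups. In bulk tissue, fewer cells of a type and less RNA per cell cannot be told apart.

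Per kilobase of exon, Gnas was the highest of the 10 genes and Mirg the lowest. The mean level over 13 libraries was 4277 ± 230 (SD) normalized counts per kilobase for Gnas, 3700 ± 1059 for Nnat, 2946 ± 292 for Ndn, 2926 ± 1019 for Meg3, 2914 ± 303 for Peg3 and 2172 ± 787 for Dlk1. Rian followed at 685 ± 62.3, Igf2 at 367 ± 355, Magel2 at 192 ± 49.2 and Mirg at 39.7 ± 13.6. Neighbours in this order overlapped in their ranges over the libraries, so that Dlk1 at its lowest, 523 per kilobase, reached below the mean of Rian. The exception was the last step, where Mirg at its highest, 61.3, lay below Magel2 at its lowest, 143.

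The genes also differed in how much they varied between libraries. Igf2 varied most, with a standard deviation of 0.88 on the log2 scale and a highest library 9.08 times the lowest, followed by Dlk1 (0.71, 6.74 times) and Meg3 (0.51, 3.30 times). Among the 17755 genes tested, 92.3% had a smaller standard deviation than Igf2, 88.0% than Dlk1 and 80.0% than Meg3. Gnas was the steadiest at 0.08, a value under which only 6.56% of tested genes lay, and Rian (0.13), Ndn (0.15) and Peg3 (0.16) were also below the median gene (0.19). Mirg (0.47), Nnat (0.43) and Magel2 (0.32) lay between.

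**Figure D1:**
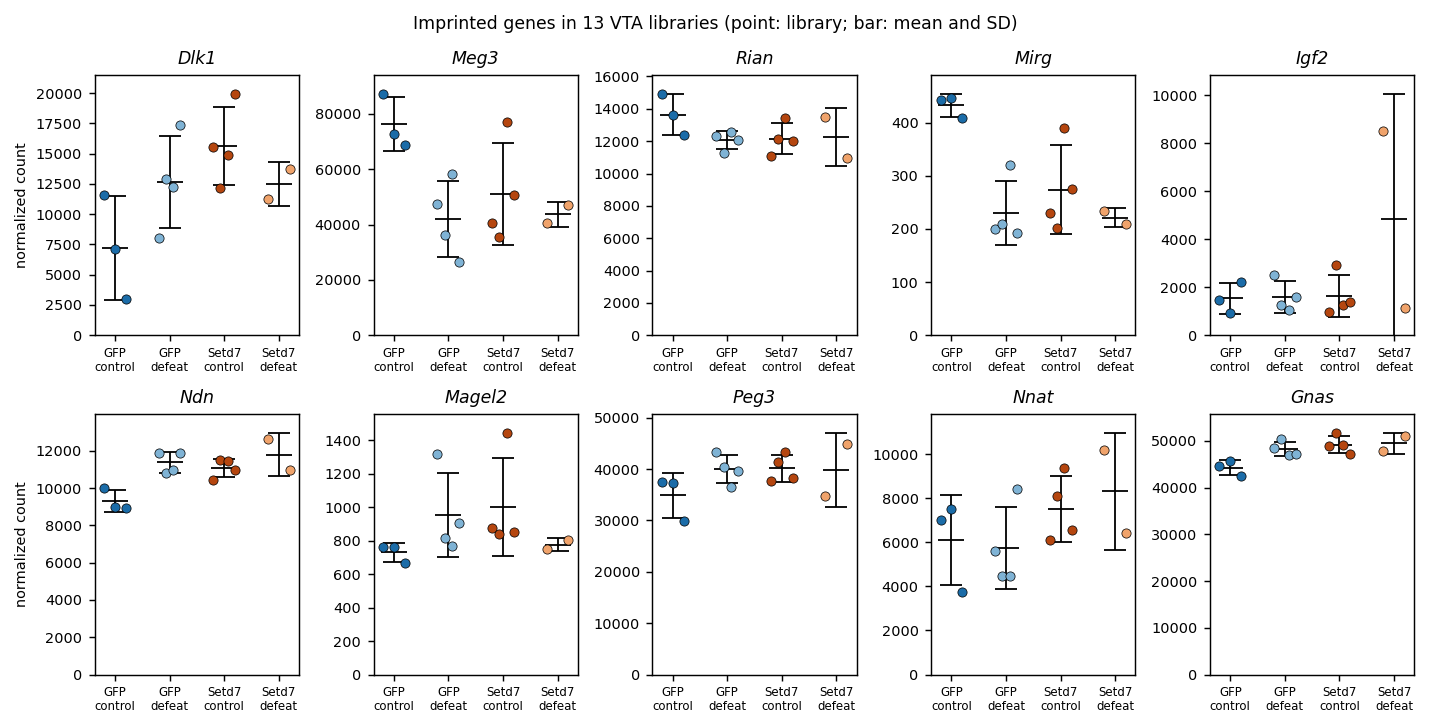
Normalized count (linear axis from 0) of the 10 imprinted genes in each of the 13 libraries, by group; points are libraries and bars are the mean and SD, with the lower SD bar of Igf2 across Setd7 defeat ending at the axis. Meg3 and Mirg had their highest group mean in GFP control, where Dlk1 held its lowest library at 2958, and the Igf2 value of 8530.1 stands alone.

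In mice with the GFP virus, Mirg fell and Ndn rose after defeat by DESeq2, and neither passed by limma or edgeR. Meg3 passed by none of these tools, although all its GFP defeat libraries lay below all its GFP control libraries. The contrast asked what adult defeat does when the virus carries GFP (GFP defeat against GFP control). By limma 0 of the 10 genes passed an adjusted p of 0.05, as did 0% of all genes tested. At unadjusted p under 0.05 there were 4 of 10, Mirg and Meg3 lower and Ndn and Dlk1 higher, where 9.25% of all genes lay under that value. By DESeq2 on the recovered reads 2 of the 10 passed, Mirg (adjusted p = 0.0200) and Ndn (0.0351), where 0.479% of all genes did. DESeq2 gave no adjusted p to 3443 of the 17755 genes, and that share counts them as not passing. By edgeR 0 of the 10 passed, as did 0 of all genes tested. Groups did not overlap for 5 of the 10 genes (3 higher, 2 lower), against 9% of all genes. The median log2 fold change of the 10 was 0.03, beside 0.00 for all genes, with 5 genes higher and 5 lower. Replicates 2 and 3 of GFP control are among the 3 libraries with low Th. All 18 dopamine neuron markers were higher in this contrast, with a median of 0.83. Without the 3 libraries with low Th the values were 0.10 for Dlk1, 0.17 for Ndn, −1.12 for Mirg and −1.47 for Meg3. These compare against GFP control replicate 1 alone, and the causes were not tested.

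Without defeat, none of the 10 genes passed a test of the Setd7 virus by any of the 3 tools. The smallest unadjusted p values by limma were those of Ndn, Dlk1 and Mirg, with log2 fold changes of 0.24, 1.31 and −0.66. All 18 dopamine neuron markers were higher in the same comparison, with a median of 1.04, and without the 3 libraries with low Th the Dlk1 value was 0.28. This contrast, Setd7 control against GFP control, uses the same 3 GFP control libraries as the one before, so the values of the pair are not independent. By limma 0 of the 10 genes passed (0% of all genes), and DESeq2 and edgeR passed 0. Of all 17755 genes, 35 passed by DESeq2, which gave no adjusted p to 6540, and 0 by edgeR. At unadjusted p under 0.05 there were 5 of 10, with Ndn, Dlk1 and Gnas higher and Mirg and Meg3 lower, against 8.01% of all genes. Groups did not overlap for 6 of 10 (5 higher, 1 lower), against 8.26% of all genes. The median log2 fold change of the 10 was 0.18, beside 0.01 for all genes.

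After defeat, no gene of the 10 separated the Setd7 from the GFP libraries. In Setd7 defeat against GFP defeat limma passed 0 of 10 at adjusted p (0% of all genes) and 0 at unadjusted p under 0.05 (4.85% of all genes), and DESeq2 and edgeR passed 0. Of all 17755 genes, 6 passed by DESeq2 and 0 by edgeR. All 10 overlapped between the groups, where 14.1% of all genes did not. In Setd7 defeat against Setd7 control the counts were again 0 at adjusted p by limma (0% of all genes), DESeq2 and edgeR and 0 at unadjusted p by limma (2.59% of all genes). Over all genes 7 passed there by DESeq2 and 0 by edgeR. Magel2 was the 1 gene without overlap (9.14% of all genes). Both contrasts rest on the 2 Setd7 defeat libraries, and 95% confidence intervals of their log2 fold changes spanned −0.88 to 0.94 for Dlk1 and −0.54 to 0.76 for Meg3 in the first.

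The difference between the defeat effects with Setd7 and with GFP was tested directly. By limma 0 of 10 passed at adjusted p (0% of all genes), as by DESeq2 and edgeR, and 2 lay under an unadjusted p of 0.05 (4.96% of all genes), Dlk1 at −1.28 ± 0.56 (SE) and Magel2 at −0.69 ± 0.31, both with adjusted p = 0.942. Without GFP control replicate 3 the Dlk1 difference was −0.74, and without GFP control replicate 1 it was −1.92. For Magel2 it was −0.46 without Setd7 control replicate 3. Without the 3 libraries with low Th the values were −0.41 for Dlk1 and −0.31 for Magel2. Averaged over defeat, the Setd7 effect passed 0 of 10 by limma, DESeq2 and edgeR, where 0.00563% of all genes passed by limma, and 3 lay under an unadjusted p of 0.05 (7.12% of all genes): Ndn (0.15), Dlk1 (0.67) and Mirg (−0.35). The Dlk1 value was 0.39 without GFP control replicate 3 and 0.07 when the 3 low-Th libraries were left out, and the Mirg value was −0.22 without Setd7 defeat replicate 2. Averaged over virus, the defeat effect passed 0 of 10 by each tool (0% of all genes by limma) with 3 at unadjusted p under 0.05 (5.18% of all genes): Mirg (−0.58), Ndn (0.18) and Meg3 (−0.52). Between females and males 0 of 10 passed by each tool, where limma passed 0.062% of all genes, and 0 lay under an unadjusted p of 0.05 (3.87% of all genes). The furthest of the 10 between the sexes was Igf2, at 0.72 ± 0.38 (female over male, adjusted p = 0.999). It was 0.31 without Setd7 defeat replicate 1 and 0.06 with the mean of meningeal markers as a covariate. Of all 17755 genes, DESeq2 passed 1 for the difference between the defeat effects and 7 for the Setd7 average. It passed 8 for the defeat average and 17 between the sexes. By edgeR the same counts were 0, 1, 0 and 10.

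**Figure D2:**
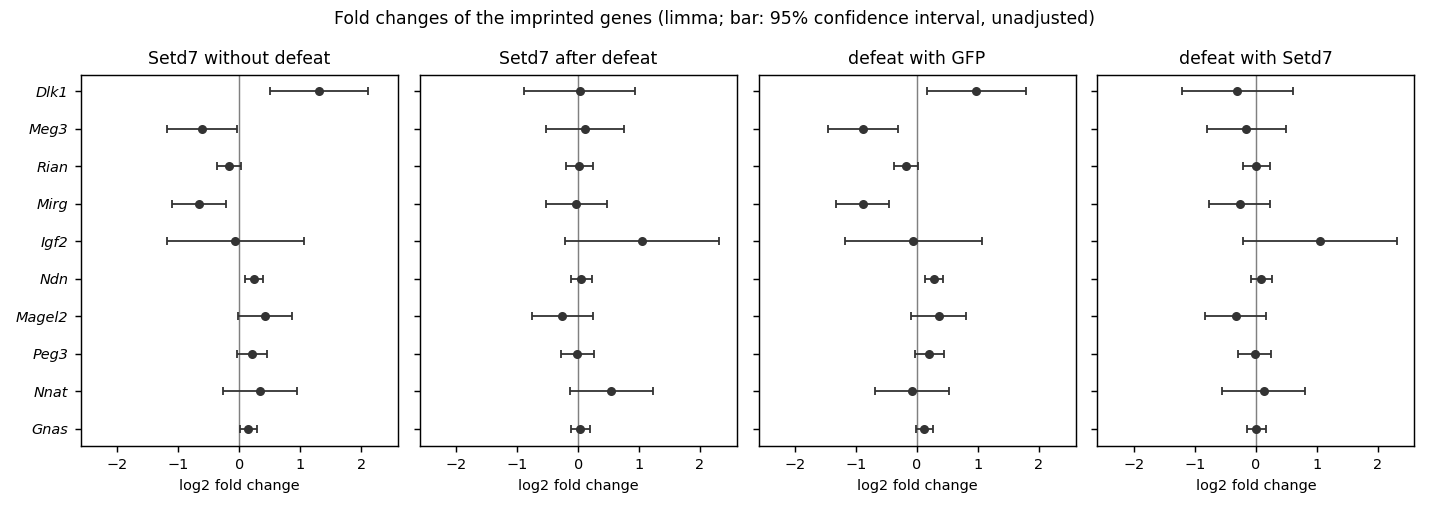
Log2 fold changes by limma (x axis) of the 10 imprinted genes in the 4 single comparisons, with 95% confidence intervals not adjusted for the number of genes. In both contrasts with GFP control the intervals of Mirg, Meg3, Ndn and Dlk1 leave out 0, as does that of Gnas for Setd7 without defeat, and all intervals of the contrasts with Setd7 defeat include 0.

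Meg3 is the first gene of the maternal run, followed by Rian and Mirg. The windows from 250 bases before to 50 bases after their RefSeq starts are shown because these 3 RNAs are read in the same direction and their counts are compared here. They come from RefSeq on GRCm38.p6, the previous build, are all on the plus strand and have each CpG in capitals. The coordinates are chr12:109540746-109541045 for the first Meg3 start, chr12:109603695-109603994 for Rian and chr12:109734731-109735030 for Mirg.
Meg3: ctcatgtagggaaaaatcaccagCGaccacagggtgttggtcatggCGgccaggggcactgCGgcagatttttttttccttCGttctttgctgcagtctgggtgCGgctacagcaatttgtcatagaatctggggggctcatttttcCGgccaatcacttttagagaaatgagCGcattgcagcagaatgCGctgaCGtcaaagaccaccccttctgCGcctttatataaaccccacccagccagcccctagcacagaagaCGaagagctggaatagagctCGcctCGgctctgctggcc
Rian: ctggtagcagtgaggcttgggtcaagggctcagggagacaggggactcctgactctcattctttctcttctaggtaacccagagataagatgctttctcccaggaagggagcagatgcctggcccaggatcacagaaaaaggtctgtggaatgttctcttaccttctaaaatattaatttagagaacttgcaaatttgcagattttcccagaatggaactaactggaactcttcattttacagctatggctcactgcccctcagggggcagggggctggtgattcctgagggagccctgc
Mirg: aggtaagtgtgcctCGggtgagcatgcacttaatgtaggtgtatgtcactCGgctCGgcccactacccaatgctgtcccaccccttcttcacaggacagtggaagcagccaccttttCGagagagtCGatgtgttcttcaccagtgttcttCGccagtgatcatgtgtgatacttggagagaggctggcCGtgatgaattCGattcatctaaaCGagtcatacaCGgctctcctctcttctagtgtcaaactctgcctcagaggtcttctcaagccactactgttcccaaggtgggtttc
The Meg3 window holds 13 CpG, a number reached by 37.9% of the 32851 promoter windows of the same length. The Mirg window holds 10 (43.5%), and the Rian window holds 0. The letters CG read the same on both strands, and the counts describe the windows and say nothing of their methylation, which was not measured.

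The microRNA arms inside the RefSeq intervals number 3 in Meg3, 6 in Rian and 19 in Mirg. A few are shown because Mirg is the microRNA host and the gene of the 10 with the smallest unadjusted p by limma in defeat with GFP, though not in defeat with Setd7, with the seed (bases 2 to 8) in capitals, from RefSeq on GRCm38.p6.
miR-453: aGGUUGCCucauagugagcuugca
miR-496a-5p: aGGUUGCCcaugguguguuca
miR-410-3p: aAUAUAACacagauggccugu
miR-369-3p: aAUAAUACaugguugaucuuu
miR-377-3p: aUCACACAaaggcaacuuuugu
miR-154-5p: uAGGUUAUccguguugccuucg
miR-770-5p: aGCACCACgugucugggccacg
miR-453 and miR-496a-5p share the seed GGUUGCC, and the seed of miR-410-3p recurs in miR-344d-3p and miR-344e-3p, which lie outside these hosts. The last of the 7 lies in Meg3 and the others in Mirg. These libraries hold long RNA, so mature microRNAs were not measured.

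Meg3, a nuclear noncoding RNA, read 87245, 72622 and 68698 across GFP control and 47317, 36308, 58154 and 26474 across GFP defeat. In Setd7 control it read 40742, 35499, 76940 and 50644, and in Setd7 defeat 40416 and 46948. Every GFP control library lay above every GFP defeat and Setd7 defeat library, and of the Setd7 control libraries only replicate 3 reached into the GFP control range. For defeat with GFP the log2 fold change of Meg3 was −0.88 ± 0.27 (adjusted p = 0.397 by limma, 0.243 by DESeq2) and Setd7 without defeat gave −0.61 ± 0.27 (0.611 and 0.56). With a library left out the first ran from −1.06 to −0.60, the weakest without GFP defeat replicate 4, and the second from −0.85 to −0.39, the weakest without GFP control replicate 1. Without the 3 libraries with low Th the same values were −1.47 and −1.05, against GFP control replicate 1 alone.

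Mirg, the microRNA host, read 443, 447 and 408 across GFP control, 200.2, 210.0, 321 and 192 across GFP defeat, 229, 203, 391 and 274 across Setd7 control, and 234 and 209 across Setd7 defeat. The 3 GFP control libraries were the 3 highest of the 13, and the lowest of them stood only just above Setd7 control replicate 3. The reads behind these values were 178 to 626 per library. The log2 fold change was −0.89 ± 0.20 for defeat with GFP (adjusted p = 0.354 by limma, 0.347 by edgeR) and −0.66 ± 0.20 for Setd7 without defeat (0.539 by limma). For defeat with Setd7 it was −0.27 ± 0.23, and the difference between both defeat effects was 0.63 ± 0.31 (adjusted p = 0.942 by limma). Without Setd7 defeat replicate 1 these were −0.50 and 0.38, and without replicate 2 of that group −0.03 and 0.86.

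The 10 microRNA hairpin genes inside Mirg have rows of their own, and their summed normalized count was 164, 151 and 127 across GFP control, 65.7, 66.5, 143 and 51.4 across GFP defeat, 85.2, 55.6, 125 and 80.5 across Setd7 control, and 76.2 and 83.2 across Setd7 defeat. GFP defeat replicate 3 and Setd7 control replicate 3 were the highest of their groups, as for Mirg, while GFP defeat replicate 3 here lay above GFP control replicate 3 and the Setd7 defeat libraries stood in the opposite order. A sum of 51 to 211 reads per library lies behind them. Reads of genes that overlap cannot be told apart with certainty. Meg3 overlaps Mir770, Mir1906-1 and Rtl1, Rian overlaps Rtl1 and small RNA genes, and Mirg overlaps 10 microRNA genes. The strand setting of the counting is not given in the sources used here. It could not separate the microRNA genes from these hosts, since both lie on the plus strand. How the counting assigned reads that lie in both genes was not tested. The 2 hairpin genes inside Meg3 were at 0 reads in all 13 libraries. The 3 inside Rian summed to 99.1 to 139 normalized counts across GFP control and 38.3 to 114 across GFP defeat. They summed to 80.1 to 152 across Setd7 control and 82.1 to 92.3 across Setd7 defeat. Behind these sums were 38 to 178 reads per library, and they were not tested.

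Rian, host of small nucleolar RNAs, was far steadier than its neighbours. It read 14925, 13599 and 12374 across GFP control, 12317, 11282, 12589 and 12042 across GFP defeat, 11095, 12102, 13459 and 11986 across Setd7 control, and 13517 and 10984 across Setd7 defeat. All groups overlapped, and the log2 fold change was −0.18 ± 0.09 for defeat with GFP (adjusted p = 0.573 by limma) and −0.17 ± 0.09 for Setd7 without defeat (0.67). Without GFP control replicate 1 these were −0.10 and −0.09, and leaving out the 3 low-Th libraries gave −0.34 and −0.31. The ratio of Meg3 to Rian within a library, which no scaling can change, was 5.85, 5.34 and 5.55 across GFP control and 3.84, 3.22, 4.62 and 2.20 across GFP defeat. In Setd7 control it was 3.67, 2.93, 5.72 and 4.23, and in Setd7 defeat 2.99 and 4.27. Thus the ratio stayed above every GFP defeat value in all GFP control libraries and in Setd7 control replicate 3. With the mean log2 value of neuron markers Rian correlated at r = −0.73 (rho = −0.62). The adjusted permutation p was 0.112 for r and 0.359 for rho. The r was −0.45 without the 2 libraries farthest on that mean, −0.80 on residuals from group and sex and −0.90 without the 3 libraries with low Th.

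Over the 13 libraries Meg3 and Mirg moved together. Their log2 values correlated at Pearson r = 0.92 and Spearman rho = 0.85, with adjusted permutation p = 7e-05, the smallest that 100000 resamples can give over 7 pairs, and 0.00259. The r was 0.92 without the 2 libraries farthest from the Meg3 median (rho = 0.77, adjusted p = 0.00126 and 0.0541), 0.95 without the 3 libraries with low Th, and 0.85 between residuals after group and sex were taken out. Rian followed Mirg (r = 0.71, rho = 0.66, adjusted p = 0.025 and 0.0566) and Meg3 (r = 0.65, rho = 0.62, adjusted p = 0.0407 and 0.0581) less closely. For Rian with Mirg and Meg3 with Rian the 2 farthest libraries were taken on the gene named first, so they differ between these pairs. Without them r was 0.59 and 0.58 over 11 libraries (adjusted permutation p = 0.156 for each). Fewer libraries alone also raise such a p-value.

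Dlk1, read from the other parental copy, did not follow them at a level that passed. Its r was −0.41 with Meg3, −0.22 with Rian and −0.44 with Mirg, with adjusted p of 0.193, 0.471 and 0.174. By rank the values were −0.32, −0.60 and −0.37, with adjusted p of 0.280, 0.0581 and 0.253, and rho with Rian was −0.71 (adjusted p = 0.0441) without Setd7 control replicate 3. On residuals Pearson r was 0.0073, 0.30 and 0.13. Rtl1, the other paternal gene of the domain that passed the filter, read 590.3 to 885 across GFP control, 592 to 893 across GFP defeat, 490 to 957 across Setd7 control and 530 to 641 across Setd7 defeat. Dio3, at the far end of the domain, stayed at or under 8.02 normalized counts and was not tested.

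**Figure D3:**
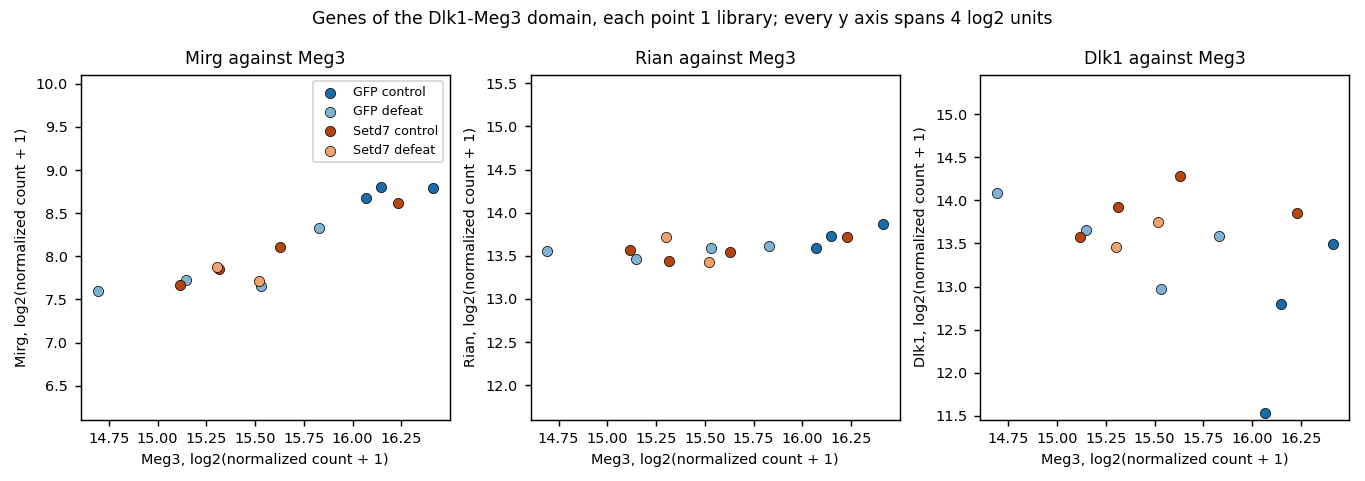
Log2(normalized count + 1) of Mirg, Rian and Dlk1 (y axes, each spanning 4 log2 units) against Meg3 (x axis), each point 1 of 13 libraries coloured by group. Mirg climbs with Meg3 (r = 0.92), Rian stays in a narrow band (r = 0.65), and Dlk1 scatters (r = −0.41).

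By Pearson r over the 13 libraries the genes with the pattern most like that of Meg3 were Malat1, an abundant nuclear noncoding RNA (0.98), Leng8 (0.97) and the noncoding RNA Snhg11 (0.96). Malat1 read 226059 to 276799 across GFP control, 119088 to 204375 across GFP defeat, 158743 to 232712 across Setd7 control and 156181 to 180552 across Setd7 defeat. For Mirg the nearest were Leng8 (0.97), Pan2, a subunit of an mRNA deadenylase (0.97), and Fam193b (0.96), and for Rian they were Iqce (0.92), Wsb1 (0.89) and Dock6 (0.89). These values describe the nearest among genes with a mean of at least 30 normalized counts and no predicted name, and carry no test.

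Dlk1, a membrane protein of the Notch ligand family that marks many midbrain dopamine neurons, was lowest in GFP control. It read 11577, 7099.7 and 2958 there, 8017, 12941, 12269 and 17398 across GFP defeat, 15516, 12202, 14853 and 19937 across Setd7 control, and 11228 and 13749 across Setd7 defeat. All Setd7 control libraries lay above all GFP control libraries, while GFP defeat overlapped GFP control. Setd7 control replicate 4, the highest in Dlk1, held the least Setd7 of its group, 28587 against 81302 to 158681. Whether Dlk1 follows the level of Setd7 was not tested. Setd7 without defeat gave a log2 fold change of 1.31 ± 0.37 (adjusted p = 0.539 by limma, 0.267 by DESeq2), and defeat with GFP gave 0.97 ± 0.37 (0.479 and 0.463). Without GFP control replicate 3 these were 0.76 and 0.43, and without GFP control replicate 1 they were 1.95 and 1.61.

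The 3 lowest values of Dlk1 were those of the 3 libraries with low Th, the first 2 from GFP control and the last from GFP defeat. Without those libraries the Dlk1 fold changes were 0.28 and 0.10, and with the mean of the dopamine neuron markers as a covariate they were 0.45 and 0.35. The 18 dopamine markers had a summed count of 39522 to 106902 across GFP control, 43205 to 170573 across GFP defeat, 96521 to 181024 across Setd7 control and 108179 to 129020 across Setd7 defeat, and none was at 0 in any group. All 18 were higher in Setd7 control than in GFP control, with a median of 1.04, and all 18 across GFP defeat, with a median of 0.83. Over 13 libraries Dlk1 correlated with their mean log2 value at r = 0.90 (rho = 0.78), with r = 0.87 without the 2 farthest libraries. The adjusted permutation p was 0.00225 for r and 0.107 for rho, over 90 relations of 10 genes with 9 marker lists. The 3 libraries with low Th form a cluster of their own at the low end, and among the other 10 libraries r was 0.74 (permutation p = 0.0168, not adjusted) and rho 0.52 (p = 0.133). The nearest genes to Dlk1 were Foxa1 (r = 0.96) and Ntsr1 (0.96), both of that marker list, and Bend5 (0.95).

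Igf2, a growth factor that the brain's meninges and choroid plexus make in large amounts, was set apart by 1 library. Which parental copy its reads came from was not measured. Igf2 read 1455, 939 and 2229 across GFP control, 2514, 1243, 1035 and 1608 across GFP defeat, 982, 2946, 1259 and 1393 across Setd7 control, and 8530.1 and 1139 across Setd7 defeat. Setd7 defeat replicate 1 thus held more than any other library, while replicate 2 of that group lay among the lower ones. Setd7 after defeat gave a log2 fold change of 1.04 ± 0.58 (adjusted p = 0.99 by limma) and defeat with Setd7 gave 1.05 ± 0.58 (adjusted p = 0.9999), and without that library the values were −0.25 and −0.24. With GFP control as the reference the Setd7 effect was −0.07 ± 0.52 and the defeat effect −0.06 ± 0.52.

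Markers of meningeal fibroblasts moved with Igf2. Their summed count was 5568 to 6394 across GFP control, 4836 to 6399 across GFP defeat and 5424 to 7144 across Setd7 control, and in Setd7 defeat it was 20993 for replicate 1 and 6039.7 for replicate 2, with none of the 15 markers at 0 in any group. Their mean log2 value was 9.77 in Setd7 defeat replicate 1 and 6.75 to 7.82 in the other 12 libraries. Igf2 correlated with it at r = 0.96 (rho = 0.86), with adjusted permutation p of 0.00225 and 0.0396 over the same 90 relations, and r was 0.86 without the 2 farthest libraries. With this mean as a covariate both Igf2 fold changes were −0.76. Endothelial and mural cell markers were also highest in Setd7 defeat replicate 1, with a mean log2 value of 10.47 against 9.87 to 10.17 in the other 12 libraries. All 12 of them were higher in Setd7 after defeat, with a median of 0.22, and none was at 0 in any group. Igf2 correlated with their mean at r = 0.81 (rho = 0.40, adjusted permutation p = 0.117 and 0.611), and r was 0.39 without the 2 farthest libraries. With the mean of choroid plexus markers r was 0.47 (rho = 0.27, adjusted permutation p = 0.484 and 0.703). That mean was highest in GFP defeat replicate 4, at 7.08, and stood at 6.82 in Setd7 defeat replicate 1. The nearest genes were the matrix protein gene Fmod (r = 0.97), the sulfate transporter Slc13a4 (0.96) and the collagen gene Col3a1 (0.95), of which the last and Slc13a4 are in the marker list. Igf2 reads overlap those of Igf2os and Mir483.

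**Figure D4:**
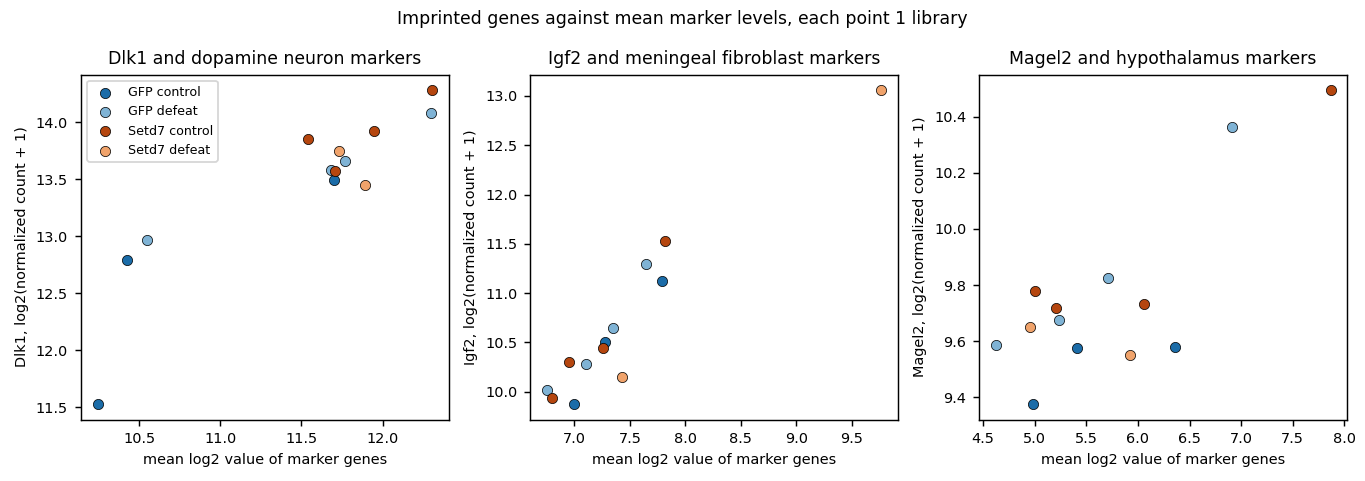
Log2(normalized count + 1) of Dlk1, Igf2 and Magel2 (y axes) against the mean log2 value of dopamine neuron, meningeal fibroblast and hypothalamus markers (x axes), each point 1 of 13 libraries coloured by group. For Dlk1 the 3 libraries with low Th stand at the lower left (r = 0.90 over all 13, 0.74 over the other 10), 1 Setd7 defeat library stands at the top right for Igf2 (r = 0.96), and 2 libraries do so for Magel2 (r = 0.80).

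Ndn, a MAGE family protein of postmitotic neurons, was lower in GFP control than in all libraries of the other groups. It read 9999, 8989 and 8954 across GFP control, 11869.7, 10835, 10994 and 11865 across GFP defeat, 10439, 11514, 11435 and 10994 across Setd7 control, and 12614 and 10982 across Setd7 defeat. The differences were small and the spread within groups smaller still. The log2 fold change was 0.28 ± 0.07 for defeat with GFP (adjusted p = 0.354 by limma, 0.373 by edgeR) and 0.24 ± 0.07 for Setd7 without defeat (0.539 by limma, 0.138 by DESeq2). It stayed between 0.17 and 0.33 for defeat with GFP under every alternative computed, the lowest without the 3 libraries with low Th. The nearest genes to Ndn were Morf4l2 (r = 0.90), Hdac11 (0.89) and Cabcoco1 (0.89).

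Magel2, a MAGE family protein best known from the hypothalamus, was high in 2 libraries. It read 764, 762 and 664 across GFP control, 1318, 817, 767 and 906 across GFP defeat, 878, 842, 1442 and 850.3 across Setd7 control, and 748 and 803 across Setd7 defeat. GFP control lay below both GFP defeat and Setd7 control, narrowly in the first case (764 against 767). The log2 fold change was 0.42 ± 0.21 for Setd7 without defeat (adjusted p = 0.636 by limma), 0.35 ± 0.21 for defeat with GFP (0.624) and −0.33 ± 0.23 for defeat with Setd7 (0.9999). Without Setd7 control replicate 3 the first was 0.19 and the last −0.12, and without GFP defeat replicate 1 the second was 0.18.

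The mean log2 value of hypothalamus markers stood highest in Setd7 control replicate 3 (7.87) and GFP defeat replicate 1 (6.91), with the other 11 libraries between 4.62 and 6.36. This mean covers the 13 of the 15 markers that passed the filter, while the sum covers all 15. The summed count of the 15 markers was 1510 to 2776 across GFP control, 1297 to 3563 across GFP defeat, 973 to 6948 across Setd7 control and 1236 to 1772 across Setd7 defeat, where Rax was at 0. Magel2 correlated with the mean at r = 0.80 (rho = 0.43, adjusted permutation p = 0.112 and 0.611), and r was 0.12 without the 2 farthest libraries, so the relation rests on them. Ndn and Magel2, close neighbours in the genome, correlated at r = 0.47 (rho = 0.48, adjusted p = 0.169 and 0.136 over the 7 pairs). The nearest genes to Magel2 were Gprasp2 (r = 0.91), Rprm (0.91) and the forkhead factor Foxb1 (0.90). Both Ndn and Magel2 overlap the predicted gene Gm32061.

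Peg3, a zinc finger protein read from the paternal copy, differed little between groups. It read 37497, 37326 and 29808 across GFP control, 43395, 40311, 36594 and 39713 across GFP defeat, 37630.5, 41358, 43296 and 38248 across Setd7 control, and 34714 and 44888 across Setd7 defeat. Setd7 control lay just above GFP control throughout, at 0.21 ± 0.11 on the log2 scale (adjusted p = 0.668 by limma), and the value for defeat with GFP was 0.20 ± 0.11 (0.599). Without GFP control replicate 3 the values were 0.10 and 0.09, and leaving out the 3 low-Th libraries gave 0.05 and −0.004. The nearest genes were Cmip (r = 0.93), Zkscan16 (0.91) and Aff2 (0.91).

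Gnas, which encodes the stimulatory G protein alpha subunit through several promoters, was slightly lower in GFP control than in any other library. It read 44608, 45639 and 42522 there, 48598, 50360.2, 47073 and 47250.0 across GFP defeat, 48895, 51654, 49157 and 47255 across Setd7 control, and 47954 and 51038 across Setd7 defeat. Setd7 without defeat gave a log2 fold change of 0.15 ± 0.07 (adjusted p = 0.611 by limma, 0.293 by DESeq2) and defeat with GFP 0.12 ± 0.07 (0.59 and 0.406). The row adds up transcripts of all Gnas promoters, and its reads overlap those of the antisense gene Gnasas1. The nearest genes were Klhl2 (r = 0.93), Fbxo38 (0.89) and Pard3 (0.89).

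Nnat, a small membrane protein of the endoplasmic reticulum, varied within every group. It read 7028, 7517 and 3752 across GFP control, 5605, 4488, 4465 and 8421 across GFP defeat, 6094, 8104, 9351 and 6548 across Setd7 control, and 10175 and 6432 across Setd7 defeat. All groups overlapped. The log2 fold change was 0.54 ± 0.31 for Setd7 after defeat (adjusted p = 0.99 by limma) and 0.34 ± 0.28 for Setd7 without defeat (0.784), and the second was 0.03 without GFP control replicate 3 and 0.53 without GFP control replicate 2. The first was 0.18 without Setd7 defeat replicate 1 and 0.91 without replicate 2 of that group. Nnat lies within the gene Blcap. Its r with the choroid plexus markers was 0.72 (rho = 0.71, adjusted permutation p = 0.117 and 0.272). The nearest genes were Sfxn1 (r = 0.89), Eef1e1 (0.88) and Lrp2 (0.88).

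Of a wider list of 51 imprinted genes, 49 are in the table, and 36 of the 39 that are not among the 10 passed the filter. Dio3, Snurf and Phlda2 did not. Among these 36 limma passed 0 at adjusted p in each of the 8 comparisons, as did DESeq2 and edgeR. The share of all genes that passed was at most 0.062% by limma and 0.479% by DESeq2. At unadjusted p under 0.05 by limma there were 7 of 36 in Setd7 without defeat (6 higher, 1 lower), against 8.01% of all genes. In defeat with GFP there were 6 (5 higher, 1 lower), against 9.25% of all genes. Setd7 after defeat gave 2, against 4.85%, and defeat with Setd7 gave 1, against 2.59%. The median log2 fold change of the 36 was 0.03, 0.08, −0.02 and −0.05 in this order of comparisons, beside 0.01, 0.00, 0.00 and −0.01 for all genes.

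In Setd7 without defeat the genes with the smallest p were Asb4 (1.11 ± 0.40) and Nap1l5 (0.25 ± 0.09) among the higher and Snhg14, the long host transcript of the Snrpn region (−0.41 ± 0.18), and Slc22a18 (−0.71 ± 0.40) among the lower. Their adjusted p by limma was 0.579 to 0.685, and without the 3 libraries with low Th Asb4 was at 0.01 and Slc22a18 at −1.17. Without GFP control replicate 1 Asb4 was at 1.71, and with the dopamine marker mean as a covariate Snhg14 was at −0.11. In defeat with GFP they were H13, a signal peptide peptidase (0.18 ± 0.07), and Grb10, an adaptor that restrains insulin signalling (0.29 ± 0.11), and on the lower side Snhg14 (−0.39 ± 0.18) and Snrpn (−0.26 ± 0.18), with adjusted p by limma of 0.462 to 0.678. Without the same 3 libraries Grb10 was at 0.02 and Snrpn at 0.11, and without GFP control replicate 1 they were at 0.47 and −0.47. Without GFP defeat replicate 4 Snhg14 was at −0.17.

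Snhg14 read 13176 to 16594 across GFP control, 7753 to 13615 across GFP defeat, 9000.9 to 13386 across Setd7 control and 8890.2 to 9354 across Setd7 defeat. Its GFP control range overlapped those of GFP defeat and Setd7 control. Ube3a, the maternally read ubiquitin ligase whose paternal copy Snhg14 opposes in neurons, averaged 14739 ± 1527 across GFP control, 14575 ± 509 across GFP defeat, 14281 ± 554 across Setd7 control and 13987 ± 1291 across Setd7 defeat.

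In Setd7 after defeat the genes with the smallest p were Slc38a4 (1.34 ± 0.61) and Cdkn1c, a cell cycle inhibitor (0.57 ± 0.36), on the higher side and Mest (−0.41 ± 0.13) and Trappc9 (−0.16 ± 0.09) on the lower, each with adjusted p = 0.99 by limma. Mest read 1695 to 1851 across GFP defeat against 1037 and 1671 across Setd7 defeat, without overlap. Leaving out Setd7 defeat replicate 2 gave Mest −0.75 (adjusted p = 0.0345 by limma, with 1 Setd7 defeat library left), and leaving out replicate 1 gave −0.07. Without replicate 1 Slc38a4 was at 0.76 and Trappc9 at −0.30, and without replicate 2 Trappc9 was at −0.02 and Cdkn1c at 0.92. In defeat with Setd7 they were Slc22a18 (0.83 ± 0.45), Cdkn1c (0.66 ± 0.36), Airn, the antisense RNA of the Igf2r region (−0.65 ± 0.29), and Ppp1r9a (−0.13 ± 0.09), each with adjusted p = 0.9999. Without Setd7 defeat replicate 2 Airn was at −0.33, Ppp1r9a at −0.26 and Cdkn1c at 1.01, and without replicate 1 Ppp1r9a was at −0.01. With the meningeal mean as a covariate Cdkn1c was at 0.00 and 0.09 in these 2 comparisons.

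**Figure D5:**
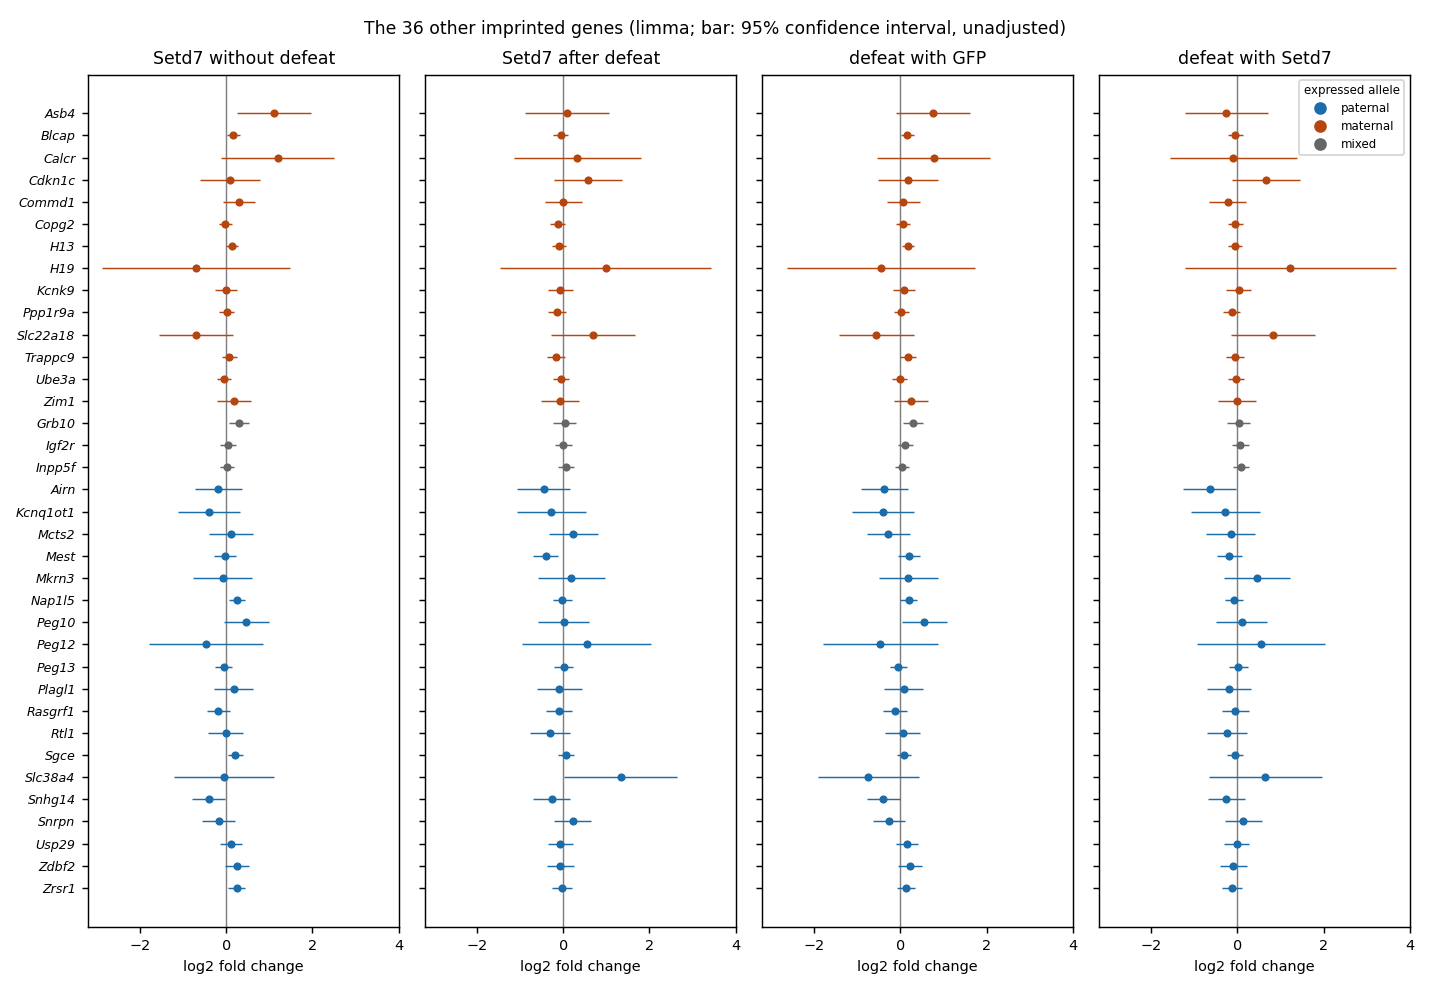
Log2 fold changes by limma (x axis) of the 36 other imprinted genes in the 4 single comparisons, with 95% confidence intervals not adjusted for the number of genes, coloured by the parental copy the gene is known to be read from. Most points lie near 0, and the widest intervals belong to genes with low counts such as H19.

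By parental copy, 8 of 19 paternally read and 9 of 14 maternally read genes of the 36 were higher in Setd7 without defeat, with median log2 fold changes of −0.03 and 0.08. In defeat with GFP the counts were 10 of 19 and 11 of 14, with medians of 0.05 and 0.12. Over all genes tested, 51.4% and 49.6% were higher in these comparisons. In Setd7 after defeat the counts were 8 of 19 and 5 of 14 (medians −0.03 and −0.06), and in defeat with Setd7 6 of 19 and 4 of 14 (medians −0.08 and −0.05), where 50.8% and 48.0% of all genes were higher. The other 3 of the 36 are read from both copies or by tissue.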

How the data were processed

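Per the labels, the 13 VTA punches gave total RNA (RNeasy Micro kit) for TruSeq RiboZero libraries. The submitters' processing notes name Bowtie2, GRCm39, featureCounts and DESeq2, with no version. The deposited values are signal: counts divided by DESeq2 size factors, in 1 table. In each library all values are multiples of 1 step, and 341432 of 341432 (100%) came within 0.01 of a whole read after division by it. These recovered reads went into the alternatives edgeR 4.0.16 and DESeq2 1.42.0. Genes with at least 10 normalized counts in 2 libraries were tested with limma 3.58.1 (trend) on log2(normalized count + 1), with 4 group means and sex, two-sided, Benjamini-Hochberg adjusted over 17755 genes, called at 0.05. Fold changes on that scale understate those of low genes. The scripts were tested on simulated data. Correlations used 100000 permutations, adjusted over 7 pairs or 90 relations. Named genes were the 10, per comparison and direction the 2 other imprinted genes with the smallest p, and per gene the 3 nearest with a mean of at least 30 normalized counts, leaving out predicted names; Rtl1, Ube3a and H19 were named after their values were seen. The genes and lists were chosen with earlier results of these data known. Exon lengths came from GENCODE M21 and sequences from RefSeq, both on GRCm38, matched by name for all 10 genes. The labels give no batch and no shared replicate numbers.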

Additional observations from a re-analysis of the deposited data

Results flagged for a closer look

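In 20 groups of 4 libraries (10 genes in GFP defeat and in Setd7 control), 2 had a library whose gap to the next was large against the range of its group, where chance gives about 1 in 20. Magel2 read 1442 in Setd7 control replicate 3 against 842 to 878 in the other libraries of that group, and the mean log2 value of hypothalamus markers was highest in the same library, at 7.87. Their part in the result was not tested. Mirg read 321 in GFP defeat replicate 3 against 192 to 210.0 in the other libraries of that group, with a gap only just large enough to count. Groups of 2 and 3 libraries were not screened, so the Igf2 value of 8530.1 in Setd7 defeat replicate 1 was not.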

How the results depend on the processing

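Over 80 results of the 10 genes (10 genes in 8 comparisons) 1790 alternative values were computed, of which 1660 kept direction and stayed uncalled, 128 changed direction without a call and 2 gained a call, Mirg and Ndn in defeat with GFP by DESeq2, which makes the number of the 10 called there 2 in place of 0. Under every other alternative the number called was 0 in all 8 comparisons. For 42 of the 80 results direction never changed. Of the pairs, Meg3 with Mirg passed by Pearson r in every setting (r from 0.90 to 0.95 with a library left out), while its rho missed the threshold without the 2 farthest libraries (adjusted p = 0.0541). Meg3 with Rian lost its call on residuals (r = 0.50), without the 2 farthest libraries (0.58) and without the 3 libraries with low Th (0.64), and ran from 0.51 to 0.74 with a library left out, missing the threshold where the library left out was GFP control replicate 1 or 2, or replicate 1, 2 or 3 of GFP defeat or of Setd7 control. Rian with Mirg lost its call without the 2 farthest libraries (0.59) and ran from 0.62 to 0.79 with a library left out, missing it without GFP control replicate 1 or 2. On residuals Dlk1 with Meg3, Rian and Mirg stood at 0.0073, 0.30 and 0.13, and Dlk1 with Mirg at 0.064 without the 2 farthest libraries. Ndn with Magel2 ran from 0.34 to 0.63 with a library left out, passed at 0.63 without Setd7 defeat replicate 1, and stood at 0.27 without the 2 farthest libraries and 0.13 without the 3 libraries with low Th. The causes were not tested. No paired analysis was possible because the groups share no replicate numbers. Mirg had the fewest reads of the 10 genes, down to 178 in Setd7 defeat replicate 2, and whether depth limits its results was not tested. Setd7 defeat rests on 2 libraries.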
